A study of Mus musculus with 6 samples.

Results

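Ovulated mouse eggs that expressed the replacement histone H3.3 with lysine 27 changed to arginine, joined to mCherry, were compared with eggs that expressed unmutated H3.3 joined to eGFP. The comparison used 4 of the 6 RNA-seq libraries of the series, the 2 labelled K27R and the 2 labelled H3.3, chosen by their titles. Of 24062 genes in the table of counts, 10667 passed the expression filter and were tested. Among the tested genes, 5031 had at least 1 count in all 4 libraries and 2210 were at 0 in both H3.3 libraries, and these sets are described apart. All eggs came from 8-week-old, superovulated females that carried the multicolour transgene HISRainbow and Figla-iCre, a recombinase driven by an oocyte promoter. Eggs were sorted by colour under a confocal microscope at metaphase of the second meiotic division (MII), the arrested stage that awaits fertilization. The other 2 libraries came from eggs with arginine 26 of H3.3 changed to lysine and joined to eCFP (R26K), and they entered the fit as another group. They were deeper, at 39603440 and 33786225 counts. They thus also shaped the expression filter and the shared estimate of spread behind each SE and p. With the 4 libraries alone, 7901 genes passed the filter. Each form had its own fluorescent tag, so tag and substitution cannot be told apart. The labels call the libraries biological replicates without saying whether separate females were used, so a p-value here measures only library-to-library spread, which may be technical. In bulk samples, fewer eggs with a transcript and less of it per egg cannot be told apart.

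H3.3 is laid down outside of DNA replication and is the main H3 that a growing oocyte can add to its chromatin. Its lysine 27 can be methylated by Polycomb repressive complex 2, a mark of silent developmental genes that complexes of the Polycomb repressive complex 1 family read, or acetylated at active promoters and enhancers. Arginine keeps the positive charge of that position but can carry neither mark. An MII egg is close to silent in transcription, so its RNA is a store made during oocyte growth and then partly degraded in maturation.

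Both genes that encode H3.3 carry lysine 27 in a coding sequence that differs at several bases, and their codon 27 is shown here because K27R concerns that position. The stretches are those of the mouse genes. K27R was expressed from the transgene, whose own sequence is not in the sources used here. The stretches below run from codon 22 to codon 31, counted without the initiator methionine, 5′ to 3′ on the coding strand, with codon 27 in capitals. They were read from GENCODE vM21 transcripts (GRCm38, mm10) and were the same at 24 of 30 bases. The H3f3a stretch lies in exon 2 at chr1:180811831-180811860 and the H3f3b stretch in exon 4 at chr11:116023914-116023943, both on the minus strand.
H3f3a: acaaaagccgctcgcAAGagtgcgccctct
H3f3b: accaaggcggctcggAAAagcgcgccctct

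Transgene transcripts could count toward either gene. H3f3b was at 3721 and 3901 CPM (counts scaled to the library) in H3.3 replicates 1 and 2, and at 3157 and 4477 CPM in K27R replicates 1 and 2. H3f3a was at 63.9 and 104.8 CPM in H3.3, against 80.0 and 67.6 CPM in K27R. In both genes the groups overlapped. The log2 fold change, K27R over H3.3 throughout, was 0.0021 ± 0.28 (SE, 2 libraries per group) for H3f3b and -0.19 ± 0.60 for H3f3a, and the sign of the first turned negative with relative log (RLE) scaling. H3f3a has 14 near-identical copies and H3f3b 2, whose reads could not be told apart here. Gene counts carry no base changes, so these values do not check which form an egg held.

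Total counts of the 4 libraries ranged from 10803477 to 12748821, so that 3 counts stood for 0.23 to 0.285 CPM. Depth was thus alike, but the number of genes with a count was not: 7590 and 7392 for H3.3, 10715 and 7405 for K27R. After thinning to the smallest library it was still 10684 in K27R replicate 1 and 7364 to 7503 in the other three. All 8 egg markers checked, among them Gdf9, Bmp15, Zp3 and Mos, had counts in every library. Of 16 markers of granulosa and cumulus cells, the egg's neighbours in the follicle, 4 and 9 were counted in the H3.3 libraries and 9 and 4 in the K27R libraries, with summed levels of 1011 and 1802 CPM, and of 1946 and 1410 CPM. Serpine2, from 941.2 to 1655 CPM, made up most of each sum, and its K27R levels lay above those in H3.3. Amhr2, Foxl2, Fshr and Lhcgr were at 0 in all 4. In H3.3 replicate 2 and K27R replicate 1, Tnfaip6 had 186.3 and 86.9 CPM, Cyp19a1 143.5 and 43.7 CPM and Inha 97.5 and 83.0 CPM. H3.3 replicate 1 had no count of these genes but plainly held Gja1 (46.1 CPM) and Ptgs2 (23.8 CPM). Gja1 reached 61.0 CPM in H3.3 replicate 2 and 34.5 CPM in K27R replicate 1, but only 0.095 CPM in K27R replicate 2. Ptgs2 reached 31.4 CPM in H3.3 replicate 2 and was absent from both K27R libraries. Of 15 markers for immune, blood, epithelial or stromal cells, 8 were at 0 in all 4, among them Ptprc, Lyz2, Cd74 and the haemoglobin genes, and the sums were 129.8 and 27.02 CPM in H3.3, against 169.7 and 174.3 CPM in K27R. Pecam1, an adhesion molecule of vessel walls, ranged from 15.4 to 156.4 CPM and was the larger part of the sum in each library, and the groups did not overlap. The part of these cells in the results below was not tested.

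By edgeR's quasi-likelihood test with Benjamini-Hochberg adjustment, 0 of 10667 genes passed an adjusted p of 0.05 in either direction (0.0%). The lowest adjusted p was 0.522, shared by 1969 genes, which included every gene with an unadjusted p under 0.05. Without adjustment, 645 genes with higher levels in K27R (6.05%) and 114 with lower levels (1.07%) had a p under 0.05. DESeq2 called 533 genes higher (5.91%) and 152 lower (1.69%) of the 9012 to which it gave an adjusted p. Among the higher calls, 35 were genes counted in K27R replicate 1 alone of the 4 libraries and 28 in K27R replicate 2 alone. Among the lower calls, 26 were counted in H3.3 replicate 1 alone and 45 in H3.3 replicate 2 alone. A DESeq2 pass can thus rest on 1 library. With so few libraries, a plainer description was used beside the fit: a gene was counted as above when both K27R libraries exceeded both H3.3 libraries, and as below in the reverse case. Of all tested genes, 1699 were above (15.9%) and 1026 below (9.62%). With 2 libraries per group, values unrelated to group would also separate in this way for part of the genes. These counts, and those of the lists below, thus do not show a difference by themselves. No gene named here passed by edgeR, and directions below are descriptions of these 4 libraries.

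Among the 5031 genes counted in all 4 libraries the 2 directions were even, with 770 above (15.3%) and 764 below (15.2%). The median log2 fold change was -0.02 and the median size of a change, without its sign, 0.53. By unadjusted edgeR p, 124 genes upward and 70 downward were under 0.05, and DESeq2 called 75 and 33. The even count rests in part on the scaling: RLE gave 699 above and 846 below, and upper-quartile scaling 807 and 724. Nearly all of the surplus of higher genes in the whole table therefore lay among genes with a 0 in some library.

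The 12 abundant genes with the smallest p in the higher direction, all averaging 50 CPM or more, included 3 regulators of chromatin that the lists below also hold. Phf1 (chromosome 17, 26933052 to 26937908, GRCm38), a Polycomb-like accessory subunit of Polycomb repressive complex 2, was at 52.6 and 63.8 CPM in H3.3, against 121.2 and 159.4 CPM in K27R, a log2 fold change of 1.27 ± 0.27. Phc2 (chromosome 4, 128654702 to 128752881), a polyhomeotic subunit of Polycomb repressive complex 1, was at 179.8 and 107.7 CPM in H3.3, against 273.1 and 457.1 CPM in K27R (1.35 ± 0.38). Rcor1 (chromosome 12, 111039351 to 111115901), the CoREST scaffold that joins a histone demethylase to histone deacetylases, had 12.3 and 3.23 CPM in H3.3 against 43.8 and 180.0 CPM in K27R (3.84 ± 1.06). Rcor1 thus differed by over 4-fold between the K27R libraries themselves. Vps72, which despite its name binds the histone variant H2A.Z within remodelling complexes, had 87.0 and 80.6 CPM in H3.3, against 147.1 and 278.5 CPM in K27R (1.34 ± 0.37). Phf1 shares exon positions with Cuta, itself at 36.3 and 48.7 CPM in H3.3, against 59.3 and 69.9 CPM in K27R, and the sources used here do not give the strandedness of the counting.

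The other 8 of these genes belonged to several processes. Ube4b, a ubiquitin chain elongation factor, was at 57.2 and 70.6 CPM in H3.3, against 155.7 and 170.7 CPM in K27R (1.35 ± 0.33). Champ1, a zinc finger protein that keeps microtubules attached to kinetochores, was at 46.7 and 40.4 against 123.1 and 140.4 CPM (1.60 ± 0.42). Nlrp9b, an oocyte member of the NLR family, was at 71.0 and 52.3 against 242.9 and 187.6 CPM (1.81 ± 0.48). In these 3 the replicates of each group lay closer to each other than to the other group, which choice by smallest p favours. The small GTPase Rab18 was at 78.8 and 53.2 against 165.7 and 251.8 CPM (1.66 ± 0.44). Cnn3, an actin-binding calponin with 2 near-identical copies, was at 100.2 and 168.4 against 292.3 and 415.1 CPM (1.40 ± 0.36). Bin2, Pak4 and Ddx39 completed the set, with log2 fold changes of 1.28 ± 0.30, 1.69 ± 0.47 and 1.34 ± 0.38. Of the 12, 11 passed DESeq2 at an adjusted p of 0.05, all but Ddx39. Exons of 8 of the 12 overlap those of another gene, among them Pak4 with Samd4b and Ddx39 with Adgre5.

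In the lower direction the 12 genes held no Polycomb subunit. Ccnl2 (chromosome 4, 155812489 to 155824543), a cyclin that works with splicing kinases, had 109.8 and 134.6 CPM in H3.3, against 51.2 and 39.8 CPM in K27R (-1.43 ± 0.32). Cenpo, a subunit of the inner kinetochore, was at 141.1 and 113.9 against 47.7 and 37.0 CPM (-1.59 ± 0.48). Rb1cc1, a scaffold of the kinase complex that starts autophagy, was at 127.9 and 166.6 against 65.2 and 51.1 CPM (-1.34 ± 0.42). These 3 were 2.53-fold to 3.01-fold lower in K27R. Larger differences were seen for Gramd1c, a sterol transfer protein, at 170.9 and 100.6 against 21.8 and 33.6 CPM (-2.29 ± 0.69), and for Tiam2, an exchange factor of the GTPase Rac, at 93.4 and 173.2 against 34.8 and 25.5 CPM (-2.14 ± 0.59). Fnip1, a partner of folliculin, was at 114.2 and 144.7 against 38.9 and 24.2 CPM (-2.04 ± 0.65). The actin-capping adducin Add1 (-1.48 ± 0.39), the ciliary GTPase Arl6 (-1.20 ± 0.34), the F-box protein Fbxo30 (-1.56 ± 0.45), Zfand5 (-0.89 ± 0.28), Txndc17 (-1.91 ± 0.62) and Edem1, of glycoprotein quality control in the endoplasmic reticulum (-1.22 ± 0.39), completed the set. DESeq2 passed 10 of the 12, all but Zfand5 and Edem1. Exons of 5 of the 12 overlap those of another gene, among them Cenpo with Adcy3 and Ptrhd1, and Tiam2 with Tfb1m.

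**Figure D1:**
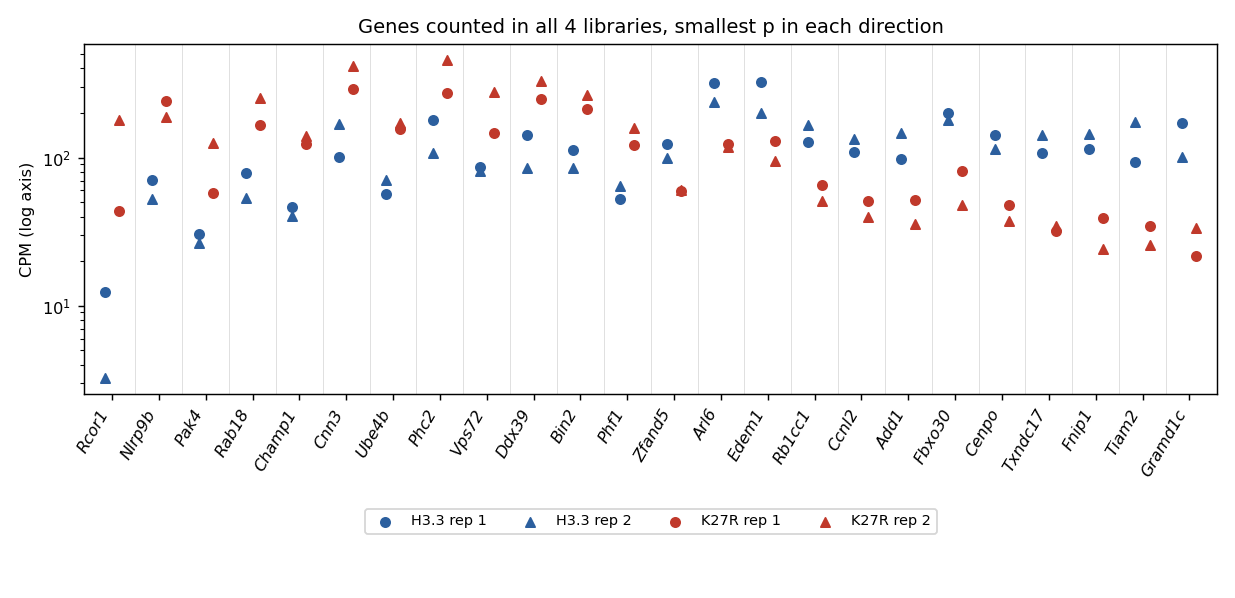
Level in CPM (log axis) of the 24 genes counted in all 4 libraries that had the smallest p in each direction, 12 higher in K27R on the left and 12 lower on the right, with blue for H3.3, red for K27R, circles for replicate 1 and triangles for replicate 2. The genes were taken for groups that do not overlap, so the gap between colours is fixed by the choice. They were also taken for a small p, which favours a small spread within a colour. That spread still varies: in Rcor1 the K27R libraries stand at 43.8 and 180.0 CPM, in Zfand5 at 59.3 and 60.6.

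Of the 2210 tested genes at 0 in both H3.3 libraries, 539 had counts in both K27R libraries, 1088 in K27R replicate 1 alone, 146 in K27R replicate 2 alone and 437 in neither. The 437 passed the filter through the R26K libraries, and all were counted in both of those. The 539 were above by construction, so their count says nothing by itself, and they were weakly expressed, with medians of 5.70 and 5.79 CPM in the K27R libraries. Together they held 0.508% and 0.689% of the counts of those libraries. Of the 539, 488 were also counted in both R26K libraries. At least 10 CPM in both K27R libraries was reached by 97 genes and at least 30 CPM by 9.

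A 0 in H3.3 did not separate the groups cleanly. Of 1848 tested genes counted in exactly 2 of the 4 libraries, 539 were shared by the K27R libraries, but 586 were shared by H3.3 replicate 1 with K27R replicate 1 and 573 by H3.3 replicate 2 with K27R replicate 1. Pairs without K27R replicate 1 shared 45 to 55 genes, and the 2 H3.3 libraries shared 50. Genes counted in 1 library alone numbered 1088 for K27R replicate 1, 146 for K27R replicate 2, 129 for H3.3 replicate 1 and 154 for H3.3 replicate 2. In turn, only 27 genes were at 0 in K27R replicate 1 alone, against 493 to 725 in each of the other three. The number of shared genes thus followed K27R replicate 1 and not the group.

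**Figure D2:**
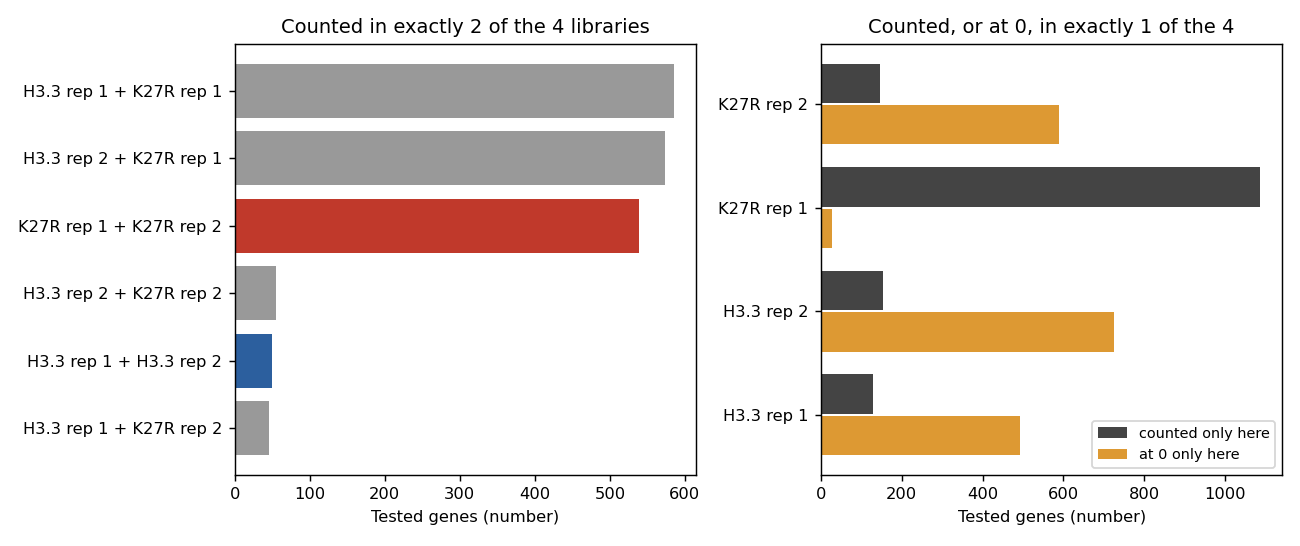
Left, number of tested genes counted in exactly 2 of the 4 libraries, by pair, with the K27R pair in red (539) and the H3.3 pair in blue (50). Right, number of tested genes counted in 1 library alone (dark) or at 0 in 1 library alone (orange). The 3 tall bars on the left all involve K27R replicate 1. Among the 4 libraries compared, 1088 genes were counted in it alone and 27 were missing from it alone. Of the 1088, 907 were counted in both R26K libraries.

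The 10 of the 539 with the highest level in the lower of the K27R libraries were of mixed function. L3mbtl2 (chromosome 15, 81663889 to 81688315), a reader subunit of a variant Polycomb repressive complex 1, had 0 counts in both H3.3 libraries and 100.9 and 46.2 CPM in K27R. Mettl15, a methyltransferase of mitochondrial ribosomal RNA, had 48.5 and 68.2 CPM in K27R, and Trp63 (chromosome 16, 25683763 to 25892102), the p53 relative that guards the oocyte genome, 32.1 and 44.4 CPM. Against a floor of 3 counts per H3.3 library these levels were at least 303-fold, 241-fold and 158-fold higher, for counting error only. A library can also miss a transcript that the eggs hold, so the floors do not bound the level in the eggs.

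A further pair act at the centrosome or spindle: Cdk5rap2, which anchors microtubule nucleation (42.1 and 55.8 CPM), and Nde1, a regulator of dynein (30.1 and 72.0 CPM). Mad2l2, which binds a DNA polymerase and can restrain the anaphase-promoting complex, was at 51.8 and 38.9 CPM. Tfg, of endoplasmic reticulum exit sites, was at 33.2 and 39.0 CPM, the orphan nuclear receptor Nr2c1 at 31.4 and 35.6 CPM and the cortactin-binding Cttnbp2 at 29.8 and 35.3 CPM. The olfactory receptor pseudogene Olfr1300-ps1 was at 65.1 and 31.9 CPM. All 10 passed DESeq2, with floors from 134-fold to 303-fold. Exons of 6 of the 10 overlap those of another gene, among them Mettl15 with Kif18a, L3mbtl2 with Chadl and Nde1 with Marf1.

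The reverse set was smaller: 50 tested genes had counts in both H3.3 libraries and 0 in both K27R libraries, with medians of 4.41 and 8.50 CPM in H3.3. The highest by its lower H3.3 library was Cyp51 (chromosome 5, 4081145 to 4104746), an enzyme of cholesterol synthesis, at 30.2 and 43.8 CPM in H3.3, at least 139.8-fold above the floor of 3 counts per K27R library. Dnah5, an axonemal dynein chain, was at 24.8 and 41.0 CPM. Ptgs2, the prostaglandin synthase of expanding cumulus, had 23.8 and 31.4 CPM. It is 1 of the cumulus markers, of which 9 were counted in K27R replicate 1. Polr1e, a subunit of RNA polymerase I, was at 26.6 and 8.58 CPM, and Map2k7, a kinase of the JNK pathway, at 7.89 and 14.3 CPM. Pip4k2a, Fam105a, Cacnb4, Sfn and Acn9 had 7.73 to 47.1 CPM in H3.3. These 10 had floors from 41.9-fold to 139.8-fold, and DESeq2 passed all but Acn9.

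Processes were then described with 48 gene lists. Of these, 30 had more genes above than below, 11 the reverse and 7 equal numbers. Over all tested genes the ratio also favoured higher (15.9% above, 9.62% below), so a list was read against that background. For many lists, but not all, the genes counted in all 4 libraries were given apart.

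In Polycomb repressive complex 1, of 22 tested members 7 were above and 0 below (31.8% and 0.0%), 4 had an unadjusted edgeR p under 0.05, and 4 passed DESeq2. The median log2 fold change was 0.31, and 0.26 over the 14 members counted in all 4 libraries, of which 4 were above and 0 below. L3mbtl2, Phc2 and Bcor, a partner of the variant complexes, had the smallest p. Bcor was at 0 in H3.3 but 6.43 and 35.9 CPM in K27R. Kdm2b, which brings a variant complex to CpG islands, was at 11.3 and 8.16 CPM in H3.3, against 39.9 and 68.8 CPM in K27R. Kdm2b has 1 near-identical copy, and its exons overlap those of Rnf34, among others. The other 3 above, named after their values were seen, were Max at 150.0 and 93.2 against 159.1 and 449.3 CPM, Scmh1 at 21.1 and 20.1 against 29.4 and 42.5 CPM, and Phc1, at 0 in H3.3 and with 13.1 and 0.475 CPM in K27R. The catalytic Rnf2, chosen for its role, was at 486.9 and 259.3 CPM in H3.3, against 317.5 and 353.8 CPM in K27R, and Bmi1 at 522.2 and 307.8 against 384.4 and 395.8 CPM, so both overlapped. The list's median was 0.67 without H3.3 replicate 1, 0.60 without H3.3 replicate 2 and 0.15 without K27R replicate 1.

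Polycomb repressive complex 2 had 2 members above and 3 below of 13. Its median of 0.06 turned to -0.07 without H3.3 replicate 1 and -0.09 without K27R replicate 2, and was 0.17 without H3.3 replicate 2. Phf1 and Rbbp4 were the members with an unadjusted p under 0.05, in opposite directions. Rbbp4, a histone-binding subunit shared with other complexes, was at 341.3 and 392.1 CPM in H3.3, against 157.9 and 259.5 CPM in K27R (-0.81 ± 0.33). The core subunits were named for their role: Ezh2, the methyltransferase, was at 495.3 and 473.9 against 456.2 and 321.4 CPM (-0.32 ± 0.27), Eed at 398.6 and 578.7 against 404.9 and 536.9 CPM, and Suz12 at 185.1 and 158.6 against 176.2 and 311.9 CPM. Ezh2 was lower in both K27R libraries, by little more than 1 SE, and Eed and Suz12 overlapped. The enzymes that remove lysine 27 methylation or add acetylation had 1 of 22 members above and 2 below, with 0 at an unadjusted p under 0.05 by edgeR and 0 by DESeq2. Kdm6b, a lysine 27 demethylase, was at 204.0 and 175.9 CPM in H3.3, against 219.6 and 245.7 CPM in K27R (0.29 ± 0.32). The list's median of 0.04 turned negative with RLE scaling, and was -0.17 without K27R replicate 1 and 0.20 without H3.3 replicate 1 or K27R replicate 2.

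Lists of other chromatin factors were mixed. The writers and erasers of H3 lysine 4 and 36 methylation had 9 of 29 members above and 2 below, with a median of 0.42. Over the 20 members counted in all 4, 5 were above and 2 below, with a median of 0.13. Without H3.3 replicate 1 the median of the whole list was 1.04. The CpG-binding Cxxc1, of a lysine 4 methyltransferase complex, had 0.0766 and 0 CPM in H3.3, against 18.9 and 36.9 CPM in K27R, and the lysine 4 demethylase Kdm5b had 0.0766 and 0 against 9.61 and 40.7 CPM. They act on the mark in opposite ways. Histone deacetylase complexes had 8 of 36 above and 6 below, from Rcor1 and Hdac9 on 1 side to Sin3b, a scaffold at 132.0 and 190.7 against 76.4 and 70.7 CPM (-1.13 ± 0.39), on the other. Among H3.3 and other histone supply genes with their chaperones, 5 of 36 were above and 7 below. Nasp, a chaperone that stores H3 and H4, was at 103.7 and 74.7 against 198.9 and 180.4 CPM (1.09 ± 0.40), and Asf1a, which hands H3 and H4 to other chaperones, was at 154.1 and 130.1 against 66.2 and 97.6 CPM (-0.79 ± 0.34). Exons of Asf1a overlap those of Mcm9. Among remodelling complexes 7 of 49 genes were above and 3 below, and 5 and 3 over the 35 counted in all 4. Ino80 was at 0.0766 and 0.510 against 55.5 and 30.6 CPM (7.17 ± 1.85) and Chd9 at 8.73 and 15.1 against 68.2 and 76.8 CPM (2.60 ± 0.94).

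Developmental regulators that Polycomb complexes mark in many cell types were mostly too low to test: of 105 in the table, 19 were tested. Of these 3 were above and 0 below, 10 were at 0 in both H3.3 libraries, and 7 of the 10 were counted in K27R replicate 1 alone. Lhx2, a homeobox gene, was at 0 in H3.3 but 6.11 and 10.1 CPM in K27R, and Pax2 at 0 and at 4.97 and 0.855 CPM. The whole list was counted for 10 and 9 members in H3.3 and for 22 and 11 in K27R, so K27R replicate 2 resembled the H3.3 libraries in this number. Imprinted genes had 7 of 25 above and 2 below, and 4 and 2 over the 12 counted in all 4. The voltage-gated potassium channel gene Kcnq1 was at 1.23 and 1.62 CPM in H3.3, against 8.71 and 7.79 CPM in K27R (2.53 ± 1.02), and its exons overlap those of Kcnq1ot1.

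Transcription factors of the oocyte also had 0 genes below. Of 22 tested, 7 were above (31.8%), 3 had an unadjusted p under 0.05 and 3 passed DESeq2. The median was 0.19, and 0.16 over the 16 counted in all 4, of which 4 were above, and it was 0.49 without H3.3 replicate 2, 0.35 without H3.3 replicate 1 and 0.06 without K27R replicate 1. Taf4b, a subunit of the general factor TFIID needed in the ovary, was at 0 in H3.3 but 7.57 and 15.95 CPM in K27R. Lhx8, a homeobox gene of early oocytes, was at 0 and 0.595 against 11.2 and 21.4 CPM (5.76 ± 1.91). E2f1, a cell cycle factor, was at 27.7 and 9.69 against 67.4 and 46.8 CPM (1.61 ± 0.57). Dppa3, a maternal protein that protects methylated DNA, chosen after its values were seen, overlapped between groups, at 8801 and 12376 CPM in H3.3, against 8105 and 11140 CPM in K27R.

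Among products that define the egg, few had separate groups. Of 16 zona pellucida and secreted factors 1 was above and 3 below, with 0 at an unadjusted p under 0.05 by edgeR and 0 by DESeq2. Gdf9, a growth factor the oocyte sends to its follicle, was at 11821 and 11281 CPM in H3.3, against 12165 and 16125 CPM in K27R (0.29 ± 0.21). Oosp1, an oocyte-secreted protein, was at 5511 and 8085 against 5368 and 5005 CPM (-0.39 ± 0.24). In the subcortical maternal complex, a protein lattice needed for cleavage, Tle6 was at 491.6 and 335.0 against 271.2 and 119.3 CPM (-1.08 ± 0.44), while Khdc3 was at 0.0766 and 0 against 8.55 and 8.45 CPM. Tle6 and Padi6 were the 2 of 8 below, and Khdc3 the 1 above. Among factors that store and polyadenylate maternal mRNA 6 of 41 were above and 3 below, and 3 and 3 over the 29 counted in all 4. Paip2b, an inhibitor of poly(A)-binding protein, had nearly equal replicates in both groups, at 139.9 and 139.4 CPM in H3.3, against 76.2 and 76.9 CPM in K27R (-0.87 ± 0.40). Choice by smallest p favours such likeness. Eif4enif1, which holds eIF4E away from translation, was at 101.2 and 87.2 against 167.9 and 130.9 CPM (0.67 ± 0.32).

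The list of metaphase arrest with cyclin B and its kinase had 8 of 36 genes above and 6 below. Map2k2, a kinase, was at 0.0766 and 0 CPM in H3.3, against 3.26 and 3.70 CPM in K27R. Mos, a kinase that keeps the egg arrested, named for its role, was at 1504 and 1572 against 1405 and 2271 CPM, and Ccnb1, cyclin B1, at 1505 and 1544 against 1400 and 1593 CPM, so both overlapped. Ccne2, cyclin E2, was below, at 272.3 and 204.9 against 122.5 and 79.7 CPM (-1.24 ± 0.41).

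Of 49 DNA replication factors 9 were above (18.4%) and 11 below (22.4%), and of the 35 counted in all 4 libraries 5 were above and 11 below, with a median of -0.33. The median over all 49 was -0.08, or -0.33 without K27R replicate 1 and 0.17 without H3.3 replicate 2. Cdt1 (chromosome 8, 122568015 to 122573554), which loads the replicative helicase, was at 80.5 and 81.1 CPM in H3.3, against 16.6 and 18.1 CPM in K27R (-2.22 ± 0.46). Rrm2, a subunit of ribonucleotide reductase with 1 near-identical copy, went the other way, at 189.6 and 154.6 against 348.2 and 333.9 CPM (0.99 ± 0.28). In both genes the replicates of a group lay close together, which choice by smallest p favours. Pola2, of DNA polymerase alpha, was at 0 in H3.3 and 2.77 and 3.23 CPM in K27R. Among 83 repair genes, 12 above and 10 below, Fancd2 was at 0 in H3.3 but 59.1 and 17.5 CPM in K27R, and Lig3 at 0 and at 18.8 and 18.3 CPM. Over the 48 repair genes counted in all 4, 4 were above and 8 below. Of 92 genes of kinetochore and spindle, 14 were above and 12 below, and 10 and 11 over the 68 counted in all 4. Aurkb, a kinase that corrects attachments to the spindle, was at 0 in H3.3 and 17.6 and 17.3 CPM in K27R. In the list of the anaphase-promoting complex and checkpoint (4 of 31 above, 4 below), Anapc7 was at 0 in H3.3 and 19.06 and 47.4 CPM in K27R, and Anapc10 was at 307.4 and 296.4 against 165.7 and 157.2 CPM (-0.90 ± 0.29).

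Of the 48 lists, cytosolic ribosomal proteins had the largest shares of genes below. Of 23 tested genes of the small subunit, 0 were above and 8 below (34.8%), and of 33 of the large subunit 4 were above and 11 below (33.3%). None reached an unadjusted edgeR p under 0.05, and DESeq2 called 0. Medians were -0.88 and -0.68. By summed level, small subunit genes totalled 518.8 and 1009 CPM for H3.3 replicates 1 and 2, and 479.3 and 463.8 CPM for the K27R replicates. Large subunit genes totalled 462.5 and 780.7 CPM, then 445.2 and 348.5 CPM. H3.3 replicate 2 stood apart from the other three in both, and without it the medians were -0.03 and -0.11. Without K27R replicate 1 they were -2.20 and -1.35. Rps9 was at 5.21 and 52.5 CPM in H3.3, against 6.76 and 5.51 CPM in K27R, and without H3.3 replicate 2 its sign reversed. Rps29 was at 4.52 and 2.89 against 0.570 and 0.570 CPM. Rps27a has 8 near-identical copies and Rpl5 has 6, whose reads could be split.

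Energy metabolism showed no shared direction. Nuclear-encoded subunits of oxidative phosphorylation had 9 of 76 above and 8 below, with a median of -0.28 that became 0.66 without H3.3 replicate 2 and -0.61 without H3.3 replicate 1. Ndufb9, Ndufa7 and Ndufs1, all of complex I, were at 0 in H3.3 and between 5.38 and 20.9 CPM in K27R. Mitochondrial ribosomal proteins had 16 of 82 above and 6 below, and 18 were at 0 in both H3.3 libraries. Over the 35 counted in all 4 the numbers were 6 and 4, with a median of -0.16. Mrps35 and Aurkaip1 were at 0 in H3.3, while in K27R the former had 13.3 and 34.4 CPM and the latter 13.9 and 34.5 CPM. In the list of pyruvate use, the citrate cycle and glycolysis (6 of 45 above, 6 below), Pdp1 (chromosome 4, 11958184 to 11966452), which switches pyruvate dehydrogenase on, was at 2.38 and 0.680 against 75.9 and 77.7 CPM (5.64 ± 0.88). Pdk3, a kinase that switches the same enzyme off, was also above, at 1.99 and 3.23 against 16.6 and 16.8 CPM (2.68 ± 1.01).

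The proteasome had 7 of 42 genes above and 1 below, and 6 and 0 over the 32 counted in all 4. Psmd4, a ubiquitin receptor, was at 145.8 and 138.3 against 263.4 and 246.0 CPM (0.84 ± 0.32). Psme3, an activator cap, was at 152.5 and 64.8 against 159.1 and 308.0 CPM (1.11 ± 0.51). The share above, 16.7%, was near that of all genes, and the share below, 2.38%, was lower than theirs. The list's median of 0.06 was 0.71 without H3.3 replicate 2 and -0.03 without K27R replicate 1. Autophagy and lysosome genes had 9 of 43 above and 2 below, but 12 were at 0 in both H3.3 libraries, 8 of them counted in K27R replicate 1 alone. Their median of 1.75 was 0.87 with genes at 0 set to the floor of 3 counts, 0.0 without K27R replicate 1, 4.44 without H3.3 replicate 2, and 0.43 over the 17 counted in all 4, of which 3 were above and 2 below. Ulk1, the kinase that starts autophagy, was at 0 in H3.3 and 17.7 and 48.9 CPM in K27R, while Rb1cc1, of the same complex, was below as given above.

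In the lists of gene expression machinery, splicing had 18 of 103 above and 10 below, RNA polymerase II with Mediator and general factors 19 of 96 and 9, and the nuclear pore 10 of 57 and 4. Over genes counted in all 4 these became 11 and 9, 13 and 9, and 2 and 4. Srsf2, a splicing factor, was at 5.75 and 8.67 against 28.3 and 57.8 CPM (2.58 ± 0.70), and Srsf11 was at 0 in H3.3 and 20.4 and 23.6 CPM in K27R. Taf12, of TFIID, was at 31.03 and 23.3 against 108.2 and 132.4 CPM (2.15 ± 0.63). Zinc finger genes of the Zfp series, many of them repressors, had 37 of 215 above and 28 below, and 19 and 18 over the 88 counted in all 4. Zfp212 (chromosome 6, 47920476 to 47932639) was at 4.37 and 5.27 against 77.1 and 65.8 CPM (3.89 ± 0.59).

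**Figure D3:**
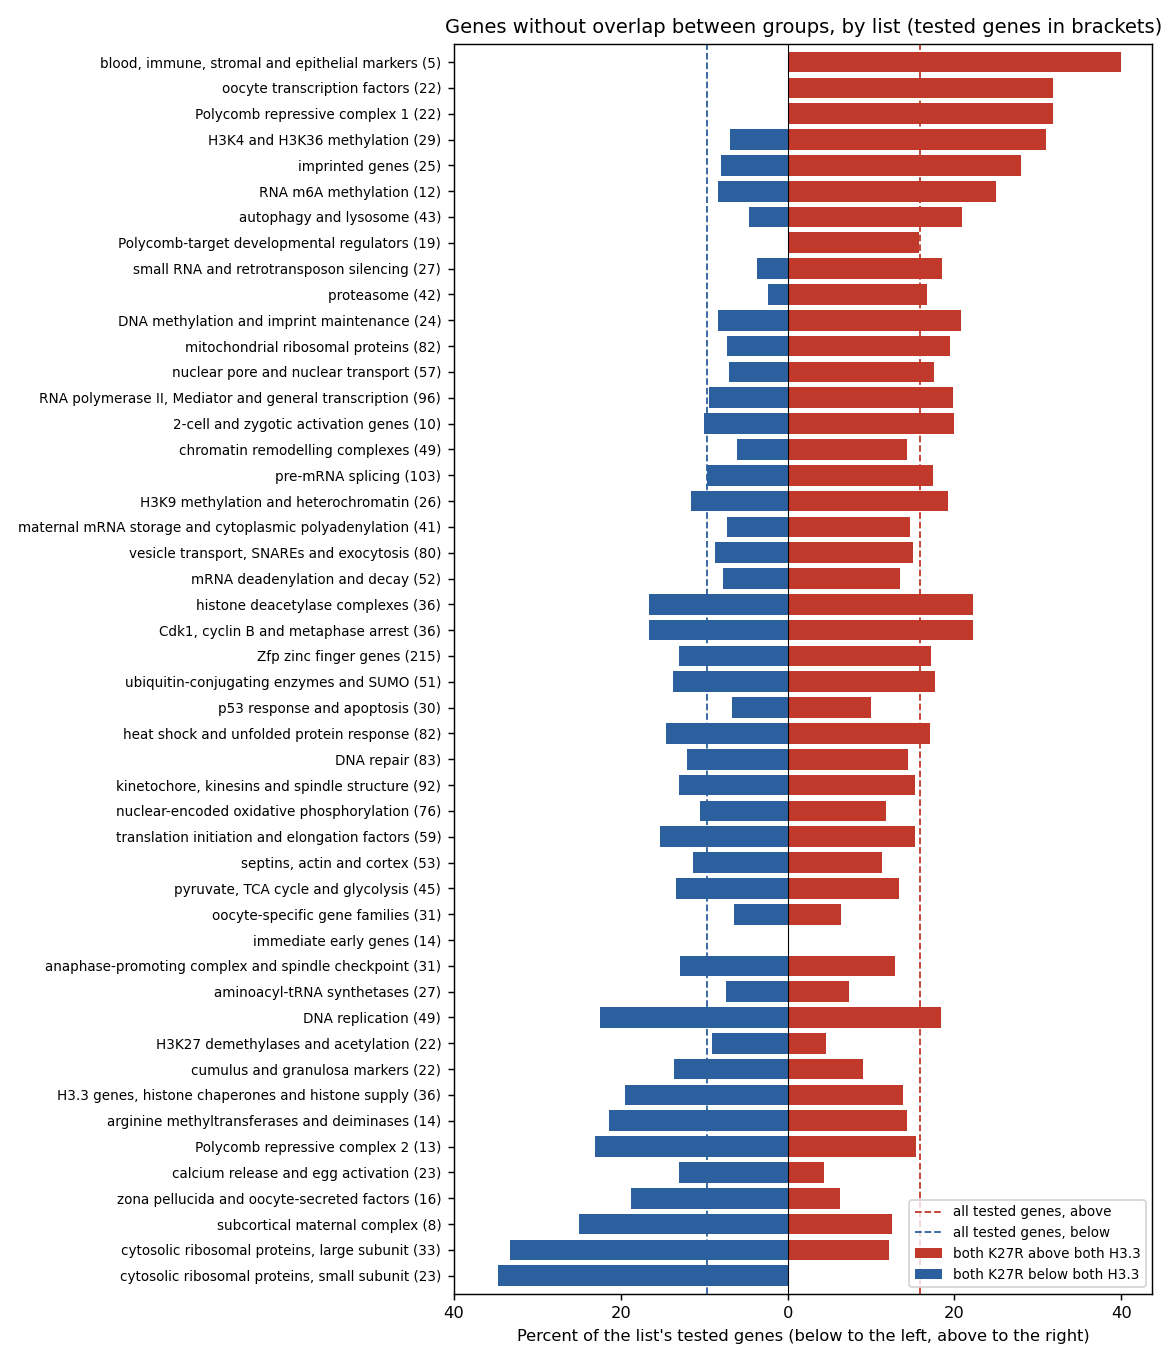
Percent of each list's tested genes with both K27R libraries above both H3.3 libraries (red, to the right) or below (blue, to the left), with the number of tested genes in brackets and dashed lines at the values of all tested genes, 15.9% and 9.62%. Polycomb repressive complex 1 and the oocyte transcription factors reach 31.8% above with 0 below, and the small subunit ribosomal proteins 34.8% below with 0 above. In the first list 3 genes, and in the second 1, were at 0 in both H3.3 libraries and thus above by construction. Over genes counted in all 4 libraries, 4 of 14 and 4 of 16 were above and 0 below. Short lists have coarse steps, such as the 5 tested genes of the markers in the top row.

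K27R replicate 2 resembled replicate 1 in the levels of shared genes. Over the 5031 genes counted in all 4 libraries, Pearson r of log2(CPM + 1) between the K27R libraries was 0.807, against 0.708 between the H3.3 libraries and 0.961 between the R26K libraries. These values are across genes of single libraries, without a test. K27R replicate 1 was closer to H3.3 replicate 1, at 0.826, than to its own replicate. The r of K27R replicate 2 was 0.742 with H3.3 replicate 1 and 0.719 with H3.3 replicate 2. The K27R libraries were within 2-fold of each other for 3213 genes (63.9%) and over 4-fold apart for 691. The H3.3 libraries were within 2-fold for 56.1%. Over all 10667 tested genes that order reversed, at 48.8% for the K27R libraries and 55.3% for the H3.3 libraries. Over those genes r was still higher between the K27R libraries, at 0.790 against 0.712.

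The differences from H3.3 did not correlate between the replicates. Each K27R library was set against a different H3.3 library, so that the 2 differences had no library in common. With same-numbered libraries paired, r over the 5031 genes was -0.02 and 50.8% of genes had the same sign. With the pairs crossed, r was -0.06 and 45.8% had the same sign. Where both differences were at least 2-fold, 273 genes were higher in both, 157 lower in both and 479 opposite in the same-numbered pairs, and 269, 168 and 558 in the crossed pairs. Among the 2636 abundant genes, averaging 50 CPM or more, r was -0.01 and -0.09.

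**Figure D4:**
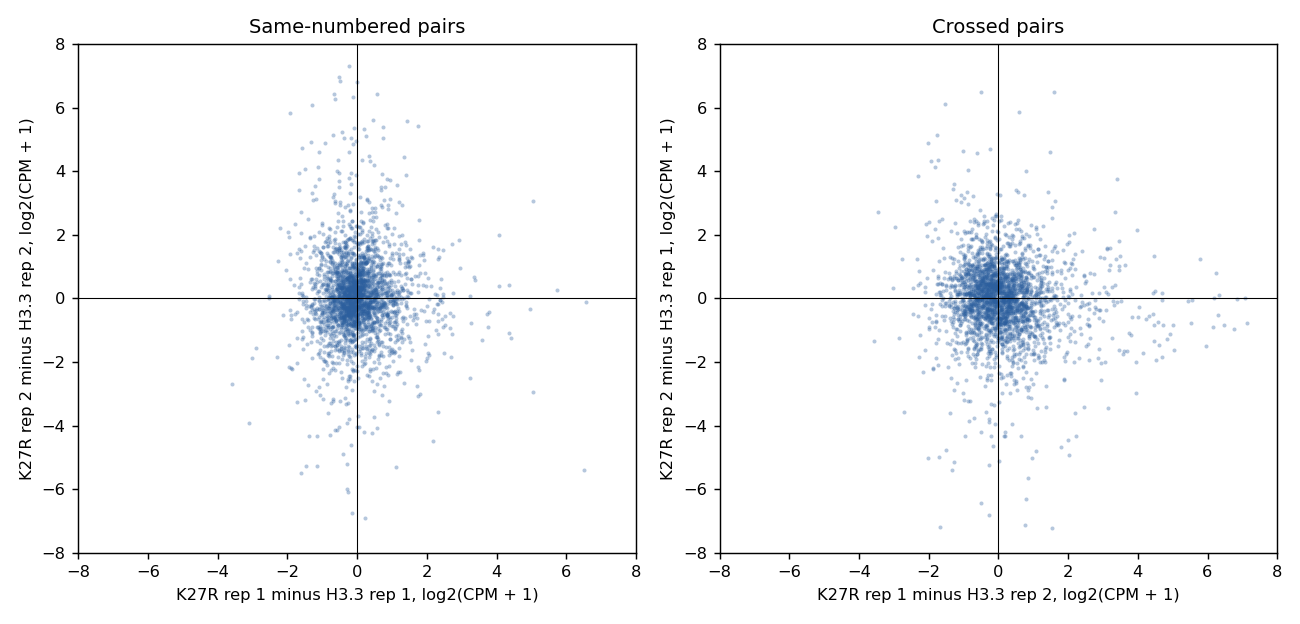
Difference between a K27R and an H3.3 library, as log2(CPM + 1), for the 2636 genes counted in all 4 libraries that average 50 CPM or more, 1 point per gene. Left, replicate 1 pair on the horizontal and replicate 2 pair on the vertical axis (r = -0.01). Right, crossed pairs (r = -0.09). Neither panel shows a rising diagonal.

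For genes at 0 in both H3.3 libraries the agreement was asymmetric. Of 1627 such tested genes counted in K27R replicate 1, 33.1% were counted in replicate 2. Of 685 counted in replicate 2, 78.7% were counted in replicate 1. Without the expression filter, 592 such genes were counted in both, 1903 in replicate 1 alone and 333 in replicate 2 alone. The filter thus raised both shares, and the shares below also cover tested genes only. The 539 counted in both had r = 0.255 between the K27R libraries, and 152 of them (28.2%) were within 2-fold. The share found again in replicate 2 differed with the level in replicate 1 and with H3.3. At 10 to 20 CPM in K27R replicate 1, replicate 2 had a count for 48.5% of 231 genes at 0 in both H3.3 libraries, for 62.3% of 485 counted in 1 H3.3 library and for 78.8% of 671 counted in both. At 20 to 50 CPM the shares were 65.3%, 70.5% and 90.7%. In the reverse direction, from replicate 2 to replicate 1, the shares for genes at 0 in both H3.3 libraries showed no rise up to 20 CPM, at 79.6%, 77.2%, 77.5% and 70.6% for under 2, 2 to 5, 5 to 10 and 10 to 20 CPM. They were 82.4% at 20 to 50 CPM. At 10 to 20 CPM, 98.7% of genes counted in both H3.3 libraries were found in replicate 1.

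**Figure D5:**
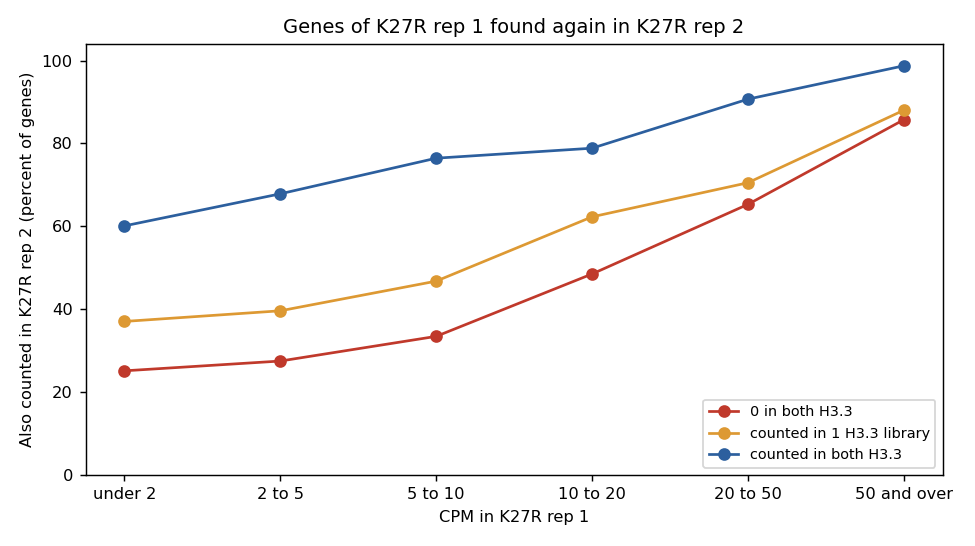
Percent of tested genes counted in K27R replicate 1 that had a count in K27R replicate 2, by level in replicate 1 (CPM), for genes at 0 in both H3.3 libraries (red), counted in 1 (orange) or in both (blue). All 3 lines go up with level, and red lies below blue throughout, from 25.1% against 60.1% under 2 CPM to 85.7% (6 of 7 genes) against 98.7% at 50 CPM and over.

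Base composition moved with the direction among abundant genes. Of the fifth of genes with the lowest GC content, from 35.0% to 43.0%, 47 were above and 102 below (median log2 fold change -0.12). In the fifth with the highest, from 52.4% to 67.9%, 83 were above and 72 below (median 0.08). Quintiles by transcript length ran from 61 to 74 above and 76 to 86 below. The part of base composition in the results above was not tested.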

How the data were processed

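Per the labels, MII egg RNA was amplified by SMARTer Ultra Low chemistry, Nextera gave the libraries, and a HiSeq 2000 read single 50-base ends. Per the submitters' processing notes, the authors used cutadapt 1.9.1, TopHat2 2.1.0, SAMtools 1.3 and featureCounts with mm10. Which annotation and strand setting were used, and what became of reads with several matches, is not given in the sources used here. Deposited values are counts per gene, whole numbers without normalization, and 0 columns were left out.

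CPM were computed with trimmed mean of M values (TMM) scaling. All 6 libraries entered 1 edgeR 4.0.16 fit (R 4.3.3, glmQLFit and glmQLFTest, filterByExpr, 3 group means, common dispersion 1.63, residual degrees of freedom 3). Two-sided tests were used, with Benjamini-Hochberg adjustment over 10667 genes and a threshold of 0.05. SE is |log2 fold change| over root F. A fold against a group at 0 uses the mean level over the mean of 3 counts per library, and covers counting error only. Depth was 10803477 to 12748821 counts in the 4 libraries.

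The members and the 48 lists were chosen with earlier results of these data known. Named genes are H3f3a and H3f3b, up to 3 members per list with the smallest p, and, among genes with no clone name whose groups do not overlap, the 12 with the smallest p in each direction that were counted in all 4 libraries and averaged 50 CPM or more, and the 10 highest (by the lower library) at 0 in both libraries of the other group. Alternatives were DESeq2 1.42.0, 2 other scalings (RLE, upper quartile), no filter, a mean of at least 10 CPM, a fit of 4 libraries, the replicate block, robust estimation and each library left out. Other scalings and thinning for the count of non-overlapping genes, and the count of genes at 0 without a filter, were added after seeing the data. Some genes that the rule names are not reported here. The edgeR fit was tested on simulated data with a smaller spread than that found here. That test therefore does not show what could be detected in these libraries. Gene positions, exon overlaps, copies and GC content came from GENCODE vM21, which matched 95.5% of tested genes.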

Additional observations from a re-analysis of the deposited data

How the results depend on the processing

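The number of genes called was 0 in each direction by edgeR with RLE or upper-quartile scaling, no filter (14242 genes), a mean of at least 10 CPM (6135 genes), a fit of the 4 libraries (7901 genes) and robust estimation. It was also 0 and 0 with the replicate block. Replicate deviations of H3.3 and K27R correlated at 0.014 over tested genes and 0.041 over genes counted in all 4. Such values cannot show whether same-numbered libraries were prepared together. DESeq2 gave 533 higher and 152 lower. Leaving out 1 library gave 0 to 5 higher and 0 lower: 5 without R26K replicate 1 (Fam50a, Stx6, L3mbtl2, Rab3il1 and Gins4), 3 without R26K replicate 2 (Stx6, L3mbtl2 and Fam50a) and 0 without any of the others, and the cause was not tested. Rab3il1 was at 0 in both H3.3 libraries, and at 6.515 and 0 CPM in K27R replicates 1 and 2. Gins4 was at 0 and 0.0850 CPM in H3.3, against 6.03 and 0 CPM in K27R. Both thus rested on K27R replicate 1 alone, and their groups overlapped. The 539 genes at 0 in both H3.3 libraries and counted in both K27R libraries were 550 after thinning. They were 408 with at least 4 counts and 592 without a filter. Genes counted in all 4 that were above or below numbered 770 and 758 after thinning. Of the log2 fold changes of named genes, 8 values of 5 genes reversed. With 1 library left out, the range was -0.50 to 0.20 for H3f3a and -3.09 to 0.23 for Rps9 (reversed without H3.3 replicate 2), and -0.39 to 10.69 for Lcor and -4.87 to 7.38 for Brpf3 (reversed without K27R replicate 1). H3f3b was at -0.046 with RLE scaling and DESeq2, -0.026 without H3.3 replicate 1 and -0.27 without K27R replicate 2. The cause was not tested. The others kept their direction, and 100 values passed the threshold that did not before. Nearly all of these came from DESeq2, whose pass can rest on 1 library. List medians moved by less than the spread between the replicate pairs in 491 of the alternatives and by more in 195. Depth limits what can be seen near 0.23 to 0.285 CPM, the level of 3 counts.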

Other observations

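Other lists held single genes with separate groups. Heat shock and unfolded protein genes had 14 of 82 above and 12 below, and 8 and 11 over the 49 counted in all 4. Among them, Dnajc11 had 0.0766 and 0.0850 CPM in H3.3, against 18.7 and 33.2 CPM in K27R, and Dnajc18 had 0.0766 and 0 against 30.9 and 32.5 CPM. In vesicle transport 12 of 80 genes were above and 7 below, and 5 and 6 over the 39 counted in all 4. Both counts above include Vps72, a subunit of chromatin remodelling complexes. Stx6, a SNARE of the trans-Golgi network, was at 0 in H3.3 but 34.8 and 23.2 CPM in K27R. Its p was the smallest of the list by edgeR's quasi-likelihood test (Benjamini-Hochberg adjusted p = 0.522). Actin and cortex genes were even, at 6 above and 6 below of 53, with Arpc5l at 26.7 and 43.3 against 81.2 and 106.7 CPM and Pfn1, profilin, at 39.8 and 16.2 against 73.1 and 85.9 CPM. Immediate early genes had 0 of 14 above and 0 below. Of genes for calcium release and egg activation 1 of 23 was above, Camk2g, at 208.0 and 260.9 against 310.5 and 532.6 CPM. The 3 below included the calcium pump Atp2a2, which has 1 near-identical copy, at 244.0 and 373.5 against 198.0 and 97.2 CPM.

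The cumulus markers differed between replicates. Inha, an inhibin subunit, and Tnfaip6, of the expanding cumulus matrix, were at 0 in H3.3 replicate 1 and K27R replicate 2. Cyp19a1, aromatase, was at 0 and 143.5 CPM in H3.3, against 43.7 and 15.6 CPM in K27R. Inhba, another inhibin subunit, was counted in H3.3 replicate 2 alone, at 38.7 CPM. Cyp11a1, the first enzyme of steroid synthesis, was at 0 in H3.3 but 38.3 and 0.0950 CPM in K27R.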
